A study of Mus musculus with 6 samples.

Results

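The CCA-ending family of tRF_3_204 is a group of tRNA fragments that share the last 13 nt of tRF_3_204, a 22-nt fragment from mouse heart. Its members were found by comparing the 3′ ends of all listed sequences whose names start with tRF_3, and 13 of the 1336 listed sequences, or 13 of the 347 CCA-ending ones, met this rule. The family was chosen by the measured counts of tRF_3_204, which were higher in Elac2 knockout than in control hearts. Every knockout against control value of the family below is therefore a description, given with no test. The libraries came from hearts of 3 control mice labelled L/L, in which an exon of Elac2 is flanked by loxP sites and no cre is present, and of 3 knockout mice labelled L/L, cre. Both groups carry the loxP-flanked gene on a C57BL/6 background, although the genotype label of the controls reads Elac2 +/+ and that of the knockouts Elac2 -/-. In the knockouts, cre is expressed from a muscle creatine kinase promoter, which directs deletion to muscle cells, so other cells of the crude heart keep the gene. The labels give no age, sex, day or litter, and nothing in the tables, which hold tRNA fragments alone, checks the genotype or the tissue.

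Precursor tRNAs carry a 3′ trailer that the RNase Z enzyme ELAC2 removes, after which a separate enzyme adds CCA to the new end. A fragment that ends in CCA was thus cut from a tRNA, or a tRNA-like RNA, that already had its mature 3′ end. Such fragments start in or near the T loop, the loop of the hairpin next to the acceptor stem, and commonly come in a shorter and a longer class. tRNAs of one amino acid are encoded by several gene copies that can differ by single bases, so a base inside a fragment can tell which kind of copy could have given it.

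The 13 sequences formed 2 ladders with a common foot. The sequences that set the ladders apart are shown here 5′ to 3′, with the base at position 20 in capitals. Positions are counted from 1 at the 3′ end.
tRF_3_249: gttcGatccccggcacctccacca
tRF_3_235: ttcGatccccggcacctccacca
tRF_3_204: tcGatccccggcacctccacca
tRF_3_156: cGatccccggcacctccacca
tRF_3_221: ttcAatccccggcacctccacca
tRF_3_171: tcAatccccggcacctccacca
tRF_3_137: cAatccccggcacctccacca
tRF_3_115: atccccggcacctccacca
tRF_3_90: tccccggcacctccacca
tRF_3_39: ccccggcacctccacca
The first 4 have G at that base and are called G forms. The next 3 differ from tRF_3_204 by the single substitution G20A and are called A forms, as are tRF_3_261, tRF_3_260 and tRF_3_121 of 27, 26 and 20 nt, which had 1 count each in all 6 libraries together. The last 3 are 17 to 19 nt long and end before position 20 is reached, so they fit the G and the A ladder equally and are called short forms. G20A was the only base difference in the family, and all 13 members shared at least 17 nt at the 3′ end.

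The A forms and the short forms matched a tRNA gene in the reference. Without the CCA, which is not encoded, the A forms and short forms end exactly where n-TAagc16 ends, a gene whose RefSeq name gives alanine and anticodon AGC. This gene lies at chr13:21222586-21222657 on the plus strand (GRCm38.p6, the assembly of mm10), inside a RefSeq window around the start of Gm32420, a gene on the other strand. It is shown because it places the family on a whole tRNA, with the 24 nt that match tRF_3_261 in capitals.
n-TAagc16: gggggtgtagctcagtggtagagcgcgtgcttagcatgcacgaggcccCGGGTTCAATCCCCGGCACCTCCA
The T arm read from this gene has a stem of 5 bp and a loop of 7 nt, TTCAATC, and position 20 is base 4 of that loop. The 22-nt forms start at base 2 of the loop and the 18-nt form at base 6. Within the 32851 RefSeq windows searched, no G form matched inside an annotated tRNA gene, and matches elsewhere in these windows were not recorded. None of the 141767 GENCODE transcripts searched held a G form without its CCA. Other tRNA gene sequences were not used here, so no gene is named for the G forms. A match is to one copy, and the same 3′ end can occur in other copies. None of the listed 5′ fragments (0 sequences) started with the first 10 nt of n-TAagc16, so this gene copy has no 5′ partner by that sequence here. For the G forms, with no gene named, a 5′ partner was not searched for.

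Total tRF counts ran from 235046 to 773252 in control and from 45354 to 61712 in knockout libraries. Values of 3 libraries are given in the order of replicates 1, 2 and 3. CCA-ending counts were 6969, 2346 and 2633 in control and 3880, 3578 and 3973 in knockout libraries, so the groups overlapped. Counts and shares of the CCA-ending class are for this reason given first. CPM below is relative to a TMM-scaled total, a scaling that sets the bulk of fragments equal between libraries. Control replicate 1 stood apart from the other controls in CCA-ending counts and in the make-up of the family, and values without it are given where they differ. Counting intervals are exact (Clopper-Pearson) 95% intervals and cover counting error only. In whole hearts, fewer cells of a type and less RNA per cell cannot be told apart.

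The family took 2.09% to 3.73% of CCA-ending counts in control hearts and from 24.0% to 30.6% in knockout hearts. Its summed count was 260, 49 and 83 in the control libraries and 930, 1095 and 1162 in the knockout libraries. Each knockout library lay above each control library, and the highest control was replicate 1. As a share of the CCA-ending count this was 3.73% (interval 3.30 to 4.20), 2.09% (1.55 to 2.75) and 3.15% (2.52 to 3.89) in controls and 24.0% (22.6 to 25.3), 30.6% (29.1 to 32.1) and 29.2% (27.8 to 30.7) in knockouts. The group means were 2.99% ± 0.833 and 27.9% ± 3.51 (SD, n = 3), a difference of 24.9 percentage points, and 25.3 points without control replicate 1. Over the same libraries the other 334 CCA-ending sequences summed to 6709, 2297 and 2550 counts in controls and 2950, 2483 and 2811 in knockouts. The total tRF count was lower in every knockout than in every control library, and its part in the family's values was not tested. The counts outside the family overlapped, and their mean count was 3852 ± 2477 in control and 2748 ± 240 in knockout libraries (SD, n = 3). That direction rested on control replicate 1: without it the control mean was 2424 counts and the knockout mean 1.13-fold higher, and in CPM the means were 19703 ± 7605 and 23072 ± 1667 (SD, n = 3).

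On the TMM scale the family sum had a mean of 648 ± 409 CPM over the controls and of 9008 ± 1736 CPM over the knockouts (SD, n = 3). With the 13 members replaced by their sum in the table, the fitted log2 fold change, a difference between knockout and control, was 3.87 ± 0.70 (SE, edgeR quasi-likelihood fit over all fragments). With library totals in place of TMM it was 5.45. Grouping all CCA-ending sequences by their last 13 nt gave 27 families of at least 5 sequences, of which 23 passed the filter on low counts. In a fit of these sums the family had the highest log2 fold change, 3.84, against −2.21 to 1.25 and a median of 0.03 in the others; it was selected on this contrast, so the order carries no test, and smaller families were not ranked.

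The G form of 22 nt, tRF_3_204, held most of the difference. It had 10, 13 and 27 counts in the control libraries and 434, 678 and 596 counts in the knockout libraries. The lowest knockout library held more than the 3 controls together, which summed to 50 counts. Its share of CCA-ending counts was 0.143%, 0.554% and 1.03% in controls and 11.2%, 18.9% and 15.0% in knockouts, and it ranked 58, 34 and 20 among the 347 CCA-ending sequences in controls and 1 in each knockout library. The mean CPM was 48.6-fold higher in knockout hearts, and 37.7-fold higher without control replicate 1. The log2 fold change was 5.61 ± 0.78 (SE). It was 5.20 without control replicate 1, 5.46 without control replicate 2 and 6.28 without control replicate 3. The authors' deposited table gives tRF_3_204 a log2 fold change of 5.60 with a standard error of 0.67. Of the gain in the family's mean CPM, 56.9% lay in tRF_3_204, and of the gain in mean raw count 59.3%.

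The other G forms were rarer, and 2 of them, tRF_3_156 and tRF_3_235, had higher counts in every knockout than in every control library. The form shorter by 1 nt, tRF_3_156, had 0 counts in each control library and 26, 34 and 74 counts in the knockout libraries. Against the 3 counts that a count of 0 over the control group allows, its pooled knockout counts, scaled by TMM, were 69.0-fold higher. That value leaves out the counting error of the knockout counts. The form longer by 1 nt, tRF_3_235, had 0, 0 and 2 counts in controls and 13, 11 and 19 counts in knockouts, which is 33.2-fold as a ratio of the counts pooled over each group and scaled by TMM (interval 8.65 to 283). All of its control counts came from replicate 3: its log2 fold change was 4.73 ± 0.99 (SE), 7.19 without control replicate 3 and 4.03 without control replicate 1. The 24-nt tRF_3_249, which by the T arm above reaches 1 base into the stem, had 0, 0 and 1 counts in controls and 8, 1 and 1 in knockouts, so 8 of its 10 knockout counts came from replicate 1. It did not pass the filter on low counts, and its ratio of pooled counts, 15.5, has an interval of 2.20 to 671.

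The A forms overlapped between the groups. tRF_3_171, which has the length and the ends of tRF_3_204 and differs from it only by G20A, had 70, 10 and 27 counts in the control libraries and 47, 19 and 62 counts in the knockout libraries. The values of the groups interleaved: control replicate 1 had the most counts, while knockout replicate 3 was highest in CPM, at 551. Its CPM was 178 ± 117 in control and 358 ± 192 in knockout hearts (SD, n = 3), with a log2 fold change of 0.995 ± 0.76 (SE), and it was not called in the fit. Without control replicate 1 its log2 fold change was 1.55. The 21-nt A form tRF_3_137 had 5, 0 and 0 counts in controls and 1, 0 and 6 in knockouts. The 23-nt A form tRF_3_221 had 0 in all controls and 0, 1 and 3 in knockouts. Summed over the 6 A forms there were 75, 10 and 27 counts in control and 49, 22 and 71 in knockout libraries. This is 2.55% of the gain in the family's mean CPM, against 63.2% for the G forms and 34.3% for the short forms.

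The balance between G and A forms was read within each library, at a single length and with the same ends, so that it does not rest on the scaling between libraries. Of the 22-nt forms, G made up 12.5% (interval 6.16 to 21.8), 56.5% (34.5 to 76.8) and 50.0% (36.1 to 63.9) in the control libraries. In the knockout libraries it made up 90.2% (87.2 to 92.7), 97.3% (95.8 to 98.4) and 90.6% (88.1 to 92.7). The knockout values lay close together and above every control value, and the intervals of the 2 groups did not meet. The means were 39.7% ± 23.8 and 92.7% ± 3.97 (SD, n = 3). Control replicate 1 was the lowest by far, with 10 G counts against 70 A counts, and without it the control mean was 53.3% and the difference 39.4 percentage points. Over all lengths together the G share was 11.8%, 56.5% and 52.6% in controls and 90.8%, 97.1% and 90.7% in knockouts. The 21-nt forms gave 134 G and 7 A counts in knockouts, and 0 G and 5 A counts in controls, all 5 in replicate 1. The A forms took 28.8%, 20.4% and 32.5% of the family count in the control libraries, and 5.27%, 2.01% and 6.11% of it in the knockout libraries.

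G and A partners that differ only at position 20 also occur elsewhere in the CCA-ending class, though all are sparse. There were 12 such pairs of equal length, 3 of them in the family at 21, 22 and 23 nt, and the other 9 held between 2 and 56 counts each over all libraries. The pair with most counts at 22 nt outside the family, tRF_3_178 with G and tRF_3_165 with A, had G shares of 64.7%, 100% and 0% in controls and 50.0%, 28.6% and 50.0% in knockouts, from 44 counts in all. In this pair no knockout library reached the G shares above 90% that the family had in each, though each rests on 4 to 10 counts. Other pairs outside the family did reach them in single knockout libraries. The 37-nt pair tRF_3_308 with G and tRF_3_307 with A had 12 G and 1 A counts in knockout replicate 2, or 92.3%. Its G shares in controls were 73.3%, 100% and 66.7%. The pair with most counts, tRF_3_312 with G and tRF_3_311 with A, had 80.8%, 78.9% and 70.0% in controls. In knockouts it held only 1 G count, in replicate 2.

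The short forms were led by the 18-nt tRF_3_90. It had 145, 19 and 22 counts in the control libraries and 349, 321 and 365 counts in the knockout libraries. Every knockout library lay above every control library, and control replicate 1 held far more counts than either other control. Among CCA-ending sequences it ranked 13, 27 and 30 in controls and 2 in each knockout library, next to tRF_3_204. Its log2 fold change was 3.31 ± 0.74 (SE), and without control replicate 1 it was 4.44. It made up 31.3% of the gain in the family's mean CPM. Because it starts at T loop base 6, which lies 3′ of position 20, its counts cannot be divided between G and A copies.

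The neighbours of tRF_3_90 were rarer. The 17-nt tRF_3_39 had 10, 5 and 2 counts in controls and 30, 24 and 16 in knockouts, so that the groups did not overlap (log2 fold change 2.69 ± 0.74, SE). It was no longer called when no filter on low counts was used. The 19-nt tRF_3_115 had 20, 2 and 2 counts in controls and 21, 4 and 20 in knockouts. Control replicate 1 and knockout replicates 1 and 3 were alike in it, and the groups overlapped. Its log2 fold change of 1.67 ± 0.84 (SE) was not called, while without control replicate 1 it was 3.17 and called.

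By length, the family had peaks at 18 and 22 nt in each library. The 22-nt forms, G and A together, held 30.8%, 46.9% and 65.1% of the family count in controls and 51.7%, 63.7% and 56.6% in knockouts. The 18-nt form held 55.8%, 38.8% and 26.5% in controls and 37.5%, 29.3% and 31.4% in knockouts. Both overlapped between the groups, and without control replicate 1 the means differed by 1.33 percentage points at 22 nt and by 0.11 at 18 nt. The 21-nt forms went from 1.92%, 0% and 0% in controls to 2.90%, 3.11% and 6.88% in knockouts. The exact intervals of the 0 values in control replicates 2 and 3 reach 7.25% and 4.35%. The rung at 21 nt was thus not separated from the controls at this depth. The same 2 lengths led the CCA-ending class outside the family, where 22-nt sequences held 39.0% ± 3.25 of counts in control and 35.8% ± 3.85 in knockout libraries, and 18-nt sequences 35.4% ± 3.92 and 39.9% ± 1.26 (SD, n = 3). Within each ladder the spread around 22 nt was narrow: tRF_3_204 held 100%, 100% and 90.0% of G counts in controls and 90.2%, 93.6% and 86.4% in knockouts, and tRF_3_171 held 93.3%, 100% and 100% of A counts in controls and 95.9%, 86.4% and 87.3% in knockouts.

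The balance between tRF_3_204 and tRF_3_90 depended in part on control replicate 1. Of the counts of this pair, tRF_3_204 took 6.45%, 40.6% and 55.1% in controls and 55.4%, 67.9% and 62.0% in knockouts. The difference of the means was 27.7 percentage points, and 13.9 without control replicate 1, with the groups apart in both cases. Control replicate 3 and knockout replicate 1 differed by less than their intervals, 40.2 to 69.3 and 51.9 to 58.9. As a share of the whole family, tRF_3_204 was 3.85%, 26.5% and 32.5% in controls and 46.7%, 61.9% and 51.3% in knockouts, a difference of means of 32.3 percentage points that was 23.8 without control replicate 1.

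The nearest sequences outside the rule share 12 nt at the 3′ end and differ from the G forms by the single substitution G13A, with that base in capitals.
tRF_3_202: tcgatccccAgcacctccacca
The 22-nt tRF_3_202 had 0, 6 and 2 counts in controls and 11, 10 and 8 counts in knockouts. Its groups did not overlap in CPM, at 16.5 ± 18.4 and 80.9 ± 8.81 (SD, n = 3), with a log2 fold change of 2.32 ± 0.87 (SE), and it was called in the fit. It passed the filter on low counts only through its knockout counts and met the limit in no control library, so its call is not evidence on the family. The 23-nt and 21-nt relatives tRF_3_233 and tRF_3_154 had 4 and 3 counts in all, each of them in knockout libraries. Of the sum of itself and tRF_3_204, tRF_3_202 made up 0%, 31.6% and 6.90% in the control libraries, where the sums were 10, 19 and 29 counts, and 2.47%, 1.45% and 1.32% in the knockout libraries. Just inside the rule, the member with the shortest shared end is tRF_3_39, whose whole 17 nt match. Beyond these, the longest shared end is 9 nt, and tRF_3_207 and tRF_3_92 are the sequences with most counts that have it. They carry the substitutions A10T, C11A, G12C and C17G and had 6, 2 and 3 against 4, 3 and 2 counts, and 12, 12 and 11 against 17, 7 and 12 counts, in control against knockout libraries. Both overlapped between the groups.

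In the fit of the whole table, 7 members passed the filter on low counts: tRF_3_235, tRF_3_204, tRF_3_171, tRF_3_156, tRF_3_115, tRF_3_90 and tRF_3_39. Of these, 5 were called higher in knockout hearts and 0 lower, the exceptions being tRF_3_171 and tRF_3_115, while 32.7% of all 254 tested fragments were called in either direction and 15.7% were called higher (edgeR quasi-likelihood test, Benjamini-Hochberg adjusted p under 0.05). The same 5 were apart between the groups in CPM, against 25.2% of tested fragments that were apart with the knockout higher. The filter compares counts with library totals, which were lower in every knockout library. All 7 members passed it through their knockout counts, and none met its limit in every control library. tRF_3_156, tRF_3_235 and tRF_3_39 met it in no control library. The comparison is also the one by which tRF_3_204 was chosen, so neither count is evidence on the family. The other 6 members held 1 to 12 counts each over all libraries. Of the 334 CCA-ending sequences outside the family, 50 were tested, of which 4 were called higher and 1 lower, with a median log2 fold change of 0.14, beside 0.06 for all tested fragments. Among the 22 tested sequences of 22 nt outside the family, 1 was called higher and 1 lower (median 0.10), and among the 14 of 18 nt, 2 were called higher and 0 lower (median 0.59).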

How the data were processed

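Per the labels' protocols, total RNA from heart was made into small RNA libraries size-selected for 15 to 35 nt, with 4 technical replicates per mouse. The submitters' processing notes list build mm10 and, without order, DESeq2 1.16.1, cutadapt 1.1.4 and Bowtie2 2.2.9. No source used here says how technical replicates were combined or where reads that fit several sequences were counted, so counts of close variants depend on that unstated rule. The authors deposited raw counts per sequence, which were used for all values here. Their normalized signal, which the authors made by dividing the count by 1 size factor per library, served as a check. The authors' deposited table gives a log2 fold change, its standard error, a mean signal, a Wald score and a p-value; other than log2 fold change and standard error nothing was printed from it.

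Counts were fitted with edgeR 4.0.16 (R 4.3.3; quasi-likelihood, TMM, filterByExpr with minimum count 10, Benjamini-Hochberg at 0.05, group as the only term). SE was taken as the size of the log2 fold change over the square root of F. On simulated data for this comparison, with 275 sequences tested, the fit recovered 36 of 37 sequences changed by 4 (log2) and 9 of 29 changed by 2, and 5 of 209 unchanged sequences were called. Only sequences that passed the filter are counted there. The simulated libraries shared 1 set of mean proportions, apart from the changes put in, and 1 dispersion (0.363). The TMM factors of the real libraries ran from 0.215 to 2.56, so these rates need not hold for them. Intervals came from SciPy 1.17.1. All members are named, with the nearest sequences outside the rule, where ties went to the sequences with most counts. The members, lists and tests were chosen with earlier results of these data known. Alternatives were other scalings, filters, DESeq2 1.42.0, limma-voom (limma 3.58.1), a replicate block, each library left out, and other lengths of the shared end.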

Additional observations from a re-analysis of the deposited data

How the results depend on the processing

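The family sum stayed higher in knockout hearts under each of the 17 alternatives run, with a log2 fold change from 2.94 to 5.45; the 2 values that moved most were 5.45 with library totals alone and 2.94 for the family without tRF_3_204. Leaving out each library gave 3.45 to 4.42 for the family sum, 59 to 91 called fragments (83 with all libraries), 23.6 to 26.9 percentage points for the family share of CCA-ending counts, 23.8 to 38.1 for the tRF_3_204 share of the family, and 39.4 to 61.4 for the G share of the 22-nt forms, the last chosen after seeing the data. Of all fragments, 40 were called higher and 43 lower with TMM, 104 and 7 with library totals alone (median log2 fold change 2.15), 52 and 36 with upper-quartile scaling (0.43), 25 and 74 with no filter, 29 and 61 by DESeq2, and 40 and 32 by limma-voom. Members called higher numbered 5 in each of these, other than 4 with no filter, where tRF_3_39 was lost, and 6 without control replicate 1, where tRF_3_115 was added; 0 were called lower. Leaving out 1 library moved 4 members by over 1.5 times: tRF_3_235 to 4.03 without control replicate 1 and 7.19 without control replicate 3, tRF_3_204 to 6.28 without control replicate 3, and tRF_3_90 and tRF_3_115 to 4.44 and 3.17 without control replicate 1. The deviations of same-numbered libraries had r = −0.0054, 0.289 and 0.0452, against −0.3 to 0.203 for libraries of unlike number. With 3 libraries per group this does not settle whether the numbers pair the mice. With the replicate block the family sum was 3.80, 70 fragments were called and 5 members were higher. Sharing the last 15 nt gave the same 13 members and the last 11 nt added 3 sequences (family sum 3.85). No 2 sequences are identical and all members lie within 15 to 35 nt, so those alternatives changed nothing. Depth limits the forms other than tRF_3_204, tRF_3_171 and tRF_3_90, which rest on under 30 counts in all controls.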
